A study of Homo sapiens with 16 samples.

Results

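The haem synthesis enzymes are the gene set described here: ALAS1, ALAS2, ALAD, UROS, UROD, CPOX, PPOX and FECH. They were taken from a list of pathway genes whatever their values, and the reads of every transcript of a gene were summed in each library. They are 8 of the 35052 genes that could be assigned, and all 8 passed the filter on low counts, with 57 to 10800 reads per gene and library. The cells were K562, an established human leukaemia line that makes embryonic and fetal globin and that is labelled as wild type. The agent was 25 nM phorbol 12-myristate 13-acetate (PMA), a phorbol ester that activates protein kinase C and pushes K562 cells toward a megakaryocyte-like state. RNA was taken at the start (0 h), early (0.5, 1.5, 3 and 6 h) and late (24, 48 and 72 h), with 2 libraries per time point and 16 in all. The 0 h libraries, taken after no time in PMA, are the only reference, so time in culture and PMA cannot be told apart, and the medium was replaced at 24 and 48 h. The labels do not say whether the 2 libraries of a time point came from separate cultures, so p-values measure the spread between libraries, which may be technical.

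Haem is made in a chain of steps that starts and ends in the mitochondrion. An aminolevulinate synthase joins glycine and succinyl-CoA: ALAS1 is the form used in all tissues and is repressed by haem, and ALAS2 is the erythroid form, whose translation is held back by iron regulatory proteins when iron is short. In the cytosol ALAD joins the product into porphobilinogen, UROS closes the tetrapyrrole ring and UROD removes carboxyl groups from it. CPOX and PPOX are the oxidases of the next steps, in the mitochondrion, and FECH, an enzyme with an iron-sulphur cluster, inserts iron. Red cell precursors raise nearly the whole chain for haemoglobin, largely under GATA1 and KLF1, whereas megakaryocytes make no haemoglobin.

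The promoters show which members carry the letters of erythroid or PMA-linked factors near their start. Sequences of the 250 bases before the start came from RefSeq (GRCh38.p14), whose table matched 7 of the 8 genes, all but UROS. Both strands were searched for GATA letters (TGATAA or the form AGATAA, and likewise TGATAG or the form AGATAG), the CACCC box bound by KLF1-type factors (CCACACCC), the NRF1 motif (GCGCATGC), the AP-1 motif (TGAGTCA) and the EGR motif (GCGTGGGCG). Over the 35116 promoters of the table, 22.3% held GATA letters, 2.97% the CACCC box, 2.63% NRF1, 4.20% AP-1 and 0.720% EGR. The 4 sequences below run 5′ to 3′ on the gene's strand, with matches in capitals. ALAS2 and ALAS1 are shown because these isoenzymes moved apart, and CPOX and PPOX because their promoters held 2 matches each.
ALAS2, chrX:55030978-55031227, minus strand: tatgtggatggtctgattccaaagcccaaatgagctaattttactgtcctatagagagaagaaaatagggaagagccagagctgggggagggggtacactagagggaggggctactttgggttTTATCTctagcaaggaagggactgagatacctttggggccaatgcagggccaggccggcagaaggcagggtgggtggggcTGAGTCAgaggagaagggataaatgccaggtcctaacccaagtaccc
ALAS1, chr3:52197833-52198082, plus strand: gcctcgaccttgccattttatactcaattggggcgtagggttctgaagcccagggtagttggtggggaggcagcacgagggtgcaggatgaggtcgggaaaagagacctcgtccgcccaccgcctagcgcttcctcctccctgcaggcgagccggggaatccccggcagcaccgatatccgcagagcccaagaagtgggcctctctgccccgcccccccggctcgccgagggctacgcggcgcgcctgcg
CPOX, chr3:98593612-98593861, minus strand: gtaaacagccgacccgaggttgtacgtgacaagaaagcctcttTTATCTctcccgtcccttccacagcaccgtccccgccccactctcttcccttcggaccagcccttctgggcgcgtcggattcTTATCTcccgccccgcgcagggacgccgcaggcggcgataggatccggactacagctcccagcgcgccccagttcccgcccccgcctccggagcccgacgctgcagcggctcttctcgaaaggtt
PPOX, chr1:161166396-161166645, plus strand: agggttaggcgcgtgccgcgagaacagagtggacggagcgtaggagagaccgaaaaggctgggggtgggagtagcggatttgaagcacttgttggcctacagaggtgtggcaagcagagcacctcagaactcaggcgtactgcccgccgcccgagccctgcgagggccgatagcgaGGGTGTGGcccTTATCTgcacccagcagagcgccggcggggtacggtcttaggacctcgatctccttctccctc
ALAS2 held GATA letters on the reverse strand (TTATCT, −127 to −122 from the start) and an AP-1 motif (−47 to −41). CPOX held TTATCT at −207 to −202 and at −125 to −120. PPOX held the CACCC box on the reverse strand (GGGTGTGG, −74 to −67) next to TTATCT (−63 to −58) in 1 of its 2 listed promoters. ALAD held AGATAG (−68 to −63) in 1 of its 2 listed promoters. ALAS1, UROD and FECH held none of the motifs in this window, and no member held an NRF1 or EGR match. A match of letters does not show binding, and the files hold no binding data.

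Each library had 27285773 to 54056289 estimated reads, of which 5324 to 16246 fell on the 8 members. Levels are given as CPM, reads relative to the library size after scaling with TMM factors, or, between genes, as TPM, which also accounts for transcript length. The K562 list of 7 genes (HBG1, HBG2, HBE1, HBZ, GATA1, LMO2, TFRC) summed to 4906 to 5330 TPM at 0 h and 3420 to 4670 at 72 h, and the megakaryocyte list of 7 went from 36.6 to 44.9 at 0 h to 1756 to 1836 TPM at 72 h, although GP1BA, GP9 and PF4 had at most 5 reads. The 5 lists for other cells summed to at most 110 TPM in any library: fibroblast genes went from 13.4 to 13.6 TPM to 74.3 to 110 TPM, and T cell genes, of which 1 of 3 passed 1 TPM, from 20.7 to 32.6 TPM to 57.9 to 72.5 TPM. B cell genes stayed between 1.42 and 3.62 TPM, neutrophil and monocyte genes between 47.3 and 92.4 TPM, and epithelial genes between 26.4 and 92.0 TPM. CD3E, CD2, MS4A1, ELANE and KRT5 had at most 11 reads, and the part of these lists in the results was not tested. In bulk RNA, fewer cells that make a transcript and less of it per cell cannot be told apart. The pair at 0 h stood apart, with a chi-square per gene between the 2 libraries of 48.3 against 8.09 to 33.5 at other times, and their difference followed GC content (r = 0.74 over 9975 genes). Results that rest on 1 of them are therefore also given without it. Scaled to total counts, the median of all genes moved by −0.28 (3 h), −0.35 (6 h), −0.26 (24 h) and −0.19 (72 h) on the log2 scale, and the calls at 6 h became 3210 higher and 7385 lower, against 4880 and 5160 with TMM. The changes below are relative to the TMM-scaled median gene.

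Most haem enzymes were lower by 6 h, from different times on, and later they parted. At 6 h 7 of the 8 were lower than at 0 h and none was higher, with a median log2 change of −1.02, whereas by 72 h ALAS2, UROS, PPOX and FECH were lower and ALAS1 and ALAD were higher. The calls of ALAS1 and ALAD at 72 h were lost with total-count scaling (log2 changes of 0.15 and 0.17) and with only the 2 time points in the fit. No member was called at 0.5 h by edgeR's quasi-likelihood test (Benjamini-Hochberg adjusted p under 0.05), when 0.171% of the 17559 tested genes were. PPOX and UROD had an unadjusted p under 0.05 there, and DESeq2 called none. At 1.5 h 4 members had fallen (UROS, UROD, PPOX and FECH), where 8.05% of all genes were called lower and 9.05% higher. At 3 h it was 5 (ALAD, UROS, CPOX, PPOX and FECH) beside 20.5% of all genes lower and 21.5% higher, and at 6 h all but ALAS1 beside 29.4% lower and 27.8% higher. Called lower at 24 h were ALAS2, UROS, CPOX, PPOX and FECH (26.6% of all genes), and at 48 h (24.1%) and 72 h (26.9%) the same without CPOX. Called higher were ALAS1 and ALAD at 24 and 72 h (31.7% of all genes at each) and ALAS1 and UROD at 48 h (30.2%). The median of the members was −0.32 (1.5 h), −0.58 (3 h), −0.54 (24 h), −0.49 (48 h) and −0.51 (72 h), whereas the median of all genes stayed within −0.03 to 0.00. Every called difference had the same direction between the libraries numbered 1 and between those numbered 2. The 4 calls at 1.5 h rested on single libraries: without the second 0 h library, or without the first 1.5 h library, no member was called, and 1 was without the second 1.5 h library. At 3 h 3 were called without the second 3 h library, the ALAD call was also lost without the second 0 h library (−0.40), and UROD was called lower at 0.5 h (−0.44) and 3 h (−0.43) without the first 0 h library, and at 24 h 4 without the first 0 h library or the second 24 h library.

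**Figure D1:**
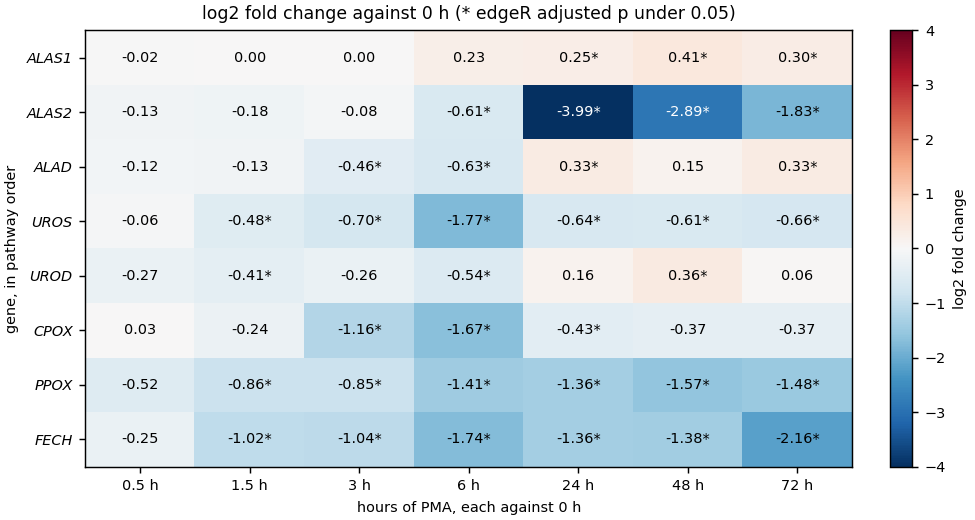
Log2 fold change of each haem synthesis gene (rows, in pathway order) at each time against 0 h (columns), by colour and number, with an asterisk for an adjusted p under 0.05 from edgeR's quasi-likelihood test (2 libraries a time). The 6 h column is negative for 7 genes, the darkest cell is ALAS2 at 24 h (−3.99), and the ALAS1 row is near 0 until 3 h (where its sign depends on the scaling) and 0.23 to 0.41 later (at 6 h −0.13 if scaled to total counts).

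ALAS2, the erythroid form of the first enzyme, was not called lower until 6 h and then, at 24 h, fell further than any other member at any time. It had 26.1 and 30.7 CPM (0 h), 25.6 and 26.3 (0.5 h), 24.5 and 25.5 (1.5 h), 29.7 and 23.9 (3 h), 19.2 and 18.1 (6 h), 1.84 and 1.74 (24 h), 3.69 and 3.96 (48 h), and 8.21 and 7.77 (72 h). The 3 h pair spanned most of the earlier libraries, and the pairs of 6, 72, 48 and 24 h, in falling order, were each clear of the next. Against 0 h the log2 change was −0.61 ± 0.12 (SE, n = 2 against 2) at 6 h (adjusted p = 0.000656), −3.99 ± 0.15 at 24 h (4.57e-11), −2.89 ± 0.13 at 48 h and −1.83 ± 0.13 at 72 h (2.85e-08). It then rose at each later step: from 24 to 48 h by 1.097 ± 0.15 (adjusted p = 0.000284) and from 48 to 72 h by 1.06 ± 0.14 (0.00148). ALAS2 was the only member called at either of these steps, where 8.88% and 1.14% of all genes were called higher. With only the 2 time points in the fit, when no member was called from 48 to 72 h, ALAS2 lost its call at that step. At 72 h it was still lower than at 6 h, by a log2 change of −1.22 ± 0.13 (adjusted p = 2.32e-06). The lowest value rests on 57 and 84 reads.

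ALAS1, the form of all tissues, was called lower at no time with TMM scaling. It had 26.6 and 32.0 CPM (0 h), 28.9 and 29.1 (0.5 h), 29.1 and 29.6 (1.5 h), 31.7 and 26.97 (3 h), 35.0 and 33.9 (6 h), 34.6 and 35.3 (24 h), 38.2 and 39.9 (48 h), and 36.2 and 36.1 (72 h). The libraries up to 3 h overlapped, and all from 6 h on were above all earlier ones. The log2 change was 0.23 ± 0.10 at 6 h (adjusted p = 0.068), 0.25 ± 0.10 at 24 h (0.048), 0.41 ± 0.10 at 48 h (0.00364) and 0.30 ± 0.10 at 72 h (0.0218). Scaled to total counts it was called lower at 3 h (−0.28, the same as the shift of the median gene) and had a value of −0.13 at 6 h, and its calls at 24 and 72 h were lost. The 6 h value was called higher with the GC trend removed (0.25), with counts made from TPM (0.31), without the second 0 h library (0.37) and without either 3 h library (0.23 at each). The 24 h call, in contrast, was lost with the GC trend removed (0.10), with counts made from TPM (0.29) and without the low-count filter (0.26). With only the 2 time points in the fit, the calls at 24 h (0.21) and 72 h (0.27) were both lost. The 24 h call was also lost when any 1 of 11 libraries was left out, and the 72 h call without the first library of 0 or of 72 h.

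Per length, the isoenzymes exchanged places. ALAS2 stood at 25.6 and 26.2 TPM and ALAS1 at 20.3 and 22.1 TPM at 0 h, a ratio of ALAS2 to ALAS1 of 1.22 ± 0.052 (SD, n = 2). This ratio became 1.11 ± 0.0079 by hour 3, 0.658 ± 0.0042 by hour 6 and 0.0621 ± 0.0046 by hour 24, and then 0.126 ± 0.0071 (48 h) and 0.254 ± 0.0046 (72 h). Both libraries of each time gave the same order, ALAS2 above ALAS1 through 3 h and below it from 6 h on. At 24 h ALAS1 was 16.1-fold above ALAS2. The level of the first enzyme in TPM thus lay mostly on ALAS1 from 24 h on, at 22.4 to 30.3 TPM.

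**Figure D2:**
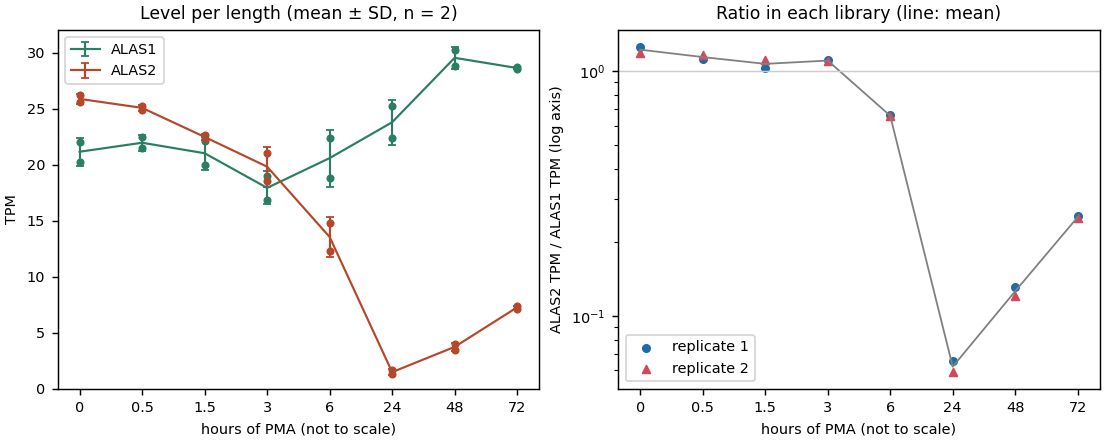
Left, TPM of ALAS1 and ALAS2 by time (points: libraries, line and bars: mean ± SD, n = 2); right, their ratio in each library on a log axis (line: mean). The lines cross between 3 and 6 h, and the ratio falls from 1.22 (0 h) to 0.0621 (24 h) and comes back to 0.254 (72 h).

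The cytosolic enzymes ALAD, UROS and UROD were lowest at 6 h and rose by 24 h, UROS only in part. ALAD, which forms porphobilinogen, had 10.8 and 11.7 CPM (0 h), 10.1 and 10.5 (0.5 h), 9.62 and 10.9 (1.5 h), 8.499 and 7.83 (3 h), 6.66 and 7.82 (6 h), 13.3 and 14.8 (24 h), 12.01 and 12.98 (48 h), and 13.5 and 14.7 (72 h). All 6 libraries from 24 h on were above all earlier ones, and those of 3 and 6 h were below the rest. Its log2 change was −0.63 ± 0.13 at 6 h (adjusted p = 0.000993) and 0.33 ± 0.13 at 24 h (0.0409) and at 72 h (0.0402). These late calls were lost with total-count scaling (0.08 and 0.17), without the low-count filter, with counts made from TPM, with the GC trend removed and with only the 2 time points in the fit. Each was also lost when any 1 of 7 libraries was left out, with values of 0.28 and 0.39 at 24 h without the first and the second 0 h library.

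UROS, which closes the ring, had 25.0 and 24.8 CPM (0 h), 22.4 and 25.4 (0.5 h), 16.6 and 19.2 (1.5 h), 16.02 and 14.6 (3 h), 7.55 and 7.02 (6 h), 16.04 and 15.8 (24 h), 17.01 and 15.6 (48 h), and 15.9 and 15.7 (72 h). The 6 h pair lay below all others, and the 24, 48 and 72 h libraries overlapped with one another. The log2 change against 0 h was −1.77 ± 0.12 at 6 h (adjusted p = 1.85e-08), close to those of FECH and CPOX, and then −0.64 ± 0.11 (24 h), −0.61 ± 0.11 (48 h) and −0.66 ± 0.11 (72 h). UROS ended at 0.634 of its 0 h level. It was also the only member called between 0.5 and 1.5 h (−0.42 ± 0.11, adjusted p = 0.0424, beside 1.67% of all genes lower), a call lost when any 1 of 10 libraries was left out.

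UROD, the most abundant member, was lower at 6 h and higher at 48 h than at 0 h. It had 170.0 and 219 CPM (0 h), 160.3 and 162 (0.5 h), 142 and 152 (1.5 h), 171 and 154 (3 h), 129 and 138 (6 h), 209 and 224 (24 h), 245 and 254 (48 h), and 201 and 204 (72 h). The 48 h pair was above all other libraries and the 6 h pair below all, while the 0 h pair spanned much of the range between. The log2 change was −0.54 ± 0.11 at 6 h (adjusted p = 0.00071) and 0.36 ± 0.11 at 48 h (0.0124). The call at 48 h was lost without the first 0 h library (0.19) or the second 48 h library (0.33). It was also lost with total-count scaling (0.20) and with only the 2 time points in the fit (0.35). At 24 and 72 h UROD was at 0.16 ± 0.11 and 0.06 ± 0.11, not called, with a sign that turned under total-count scaling (−0.09 at both). Without the first 0 h library the values were −0.010 and −0.11, and without the second UROD was called higher at both times (0.35 and 0.25).

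**Figure D3:**
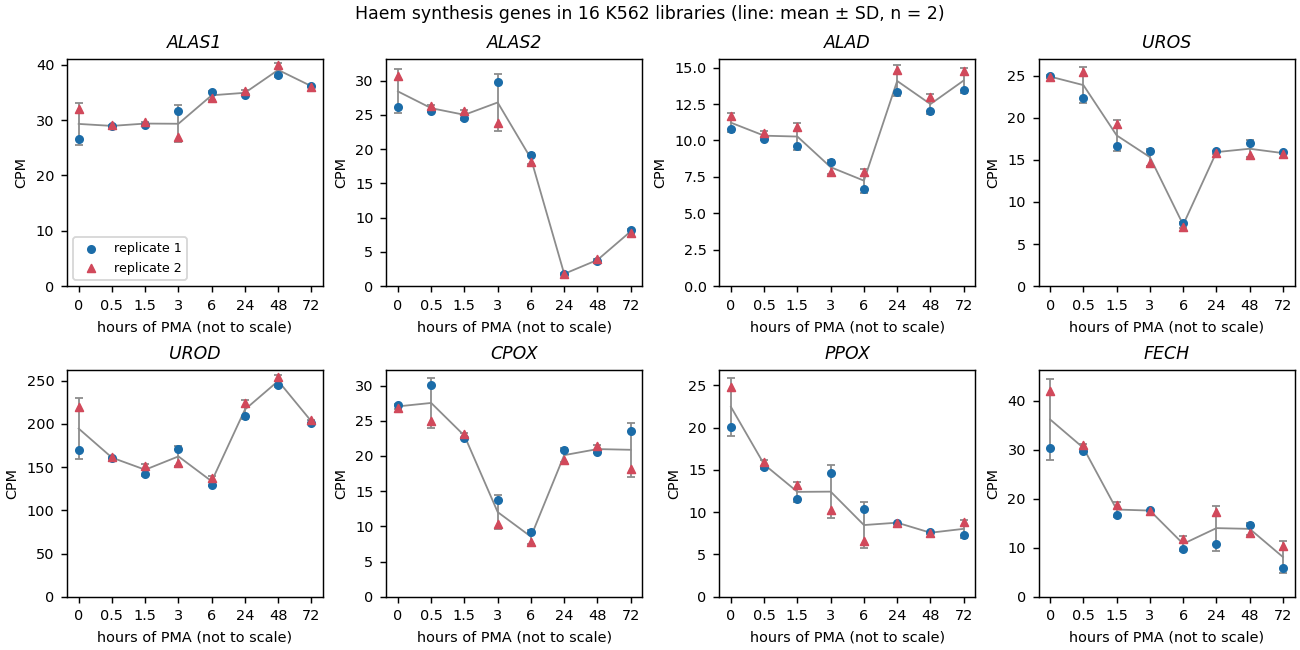
CPM of the 8 haem synthesis genes at the 8 time points, evenly spaced (circles and triangles: replicates 1 and 2, line and bars: mean ± SD, n = 2; each vertical axis starts at 0). ALAD, UROS, UROD and CPOX dip at 6 h and are higher again at 24 h, ALAS2 drops between 6 and 24 h, and PPOX and FECH stay low.

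Among the mitochondrial oxidases and the last enzyme, CPOX rose again after 6 h, short of its 0 h level, and PPOX and FECH were not called higher at 24 or 72 h than at 6 h. CPOX had 27.3 and 26.8 CPM (0 h), 30.0 and 25.0 (0.5 h), 22.6 and 23.2 (1.5 h), 13.7 and 10.3 (3 h), 9.25 and 7.82 (6 h), 20.9 and 19.4 (24 h), 20.6 and 21.4 (48 h), and 23.6 and 18.2 (72 h). The 3 h pair was below every earlier library and the 6 h pair below every other one, and the 24, 48 and 72 h libraries overlapped. Its log2 change was −1.16 ± 0.16 at 3 h (adjusted p = 4.22e-05), −1.67 ± 0.16 at 6 h (8.78e-07) and −0.43 ± 0.15 at 24 h (0.0276). At 48 and 72 h it was −0.37 ± 0.15 at each, just short of the threshold (adjusted p = 0.0571 and 0.0501). CPOX was the only member called between 1.5 and 3 h (−0.92 ± 0.16, adjusted p = 0.000548, beside 12.1% of all genes lower). The 24 h call was lost when any library of 0 or 24 h was left out, and the 48 and 72 h values were called under total-count scaling (−0.53 and −0.54), with the GC trend removed (−0.45 at both) and without the low-count filter. They were also called when 1 of 4 libraries (48 h) or 1 of 3 (72 h) was left out.

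PPOX, which forms protoporphyrin, fell early and stayed low. It had 20.04 and 24.8 CPM (0 h), 15.3 and 15.98 (0.5 h), 11.6 and 13.2 (1.5 h), 14.6 and 10.2 (3 h), 10.4 and 6.57 (6 h), 8.76 and 8.75 (24 h), 7.63 and 7.499 (48 h), and 7.27 and 8.78 (72 h). Both 0 h libraries were above all later ones, and the libraries of 6, 24 and 72 h overlapped. The log2 change was −0.86 ± 0.20 at 1.5 h (adjusted p = 0.013), −1.41 ± 0.21 at 6 h (5.38e-05), −1.36 ± 0.21 after 24 h, −1.57 ± 0.21 after 48 h and −1.48 ± 0.21 after 72 h (3.27e-05). From 6 to 72 h it differed by −0.07 ± 0.21, not called. PPOX shares 1118 exonic bases (24.3% of its exonic length) with B4GALT3 on the opposite strand, which had a mean of 1435 reads, and whether the counting used strand is not given in the sources used here.

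FECH, which inserts the iron, was called lower than at 0 h at every time from 1.5 h on. It had 30.4 and 42.0 CPM (0 h), 29.7 and 31.0 (0.5 h), 16.8 and 18.8 (1.5 h), 17.7 and 17.5 (3 h), 9.71 and 11.9 (6 h), 10.7 and 17.3 (24 h), 14.7 and 13.0 (48 h), and 5.80 and 10.4 (72 h). Libraries of 0 and 0.5 h overlapped and were above all later ones, and the 6 h pair overlapped those of 24 and 72 h. The log2 change was −1.02 ± 0.25 at 1.5 h (adjusted p = 0.0141), −1.74 ± 0.26 at 6 h (4.89e-05), −1.36 ± 0.25 at 24 h and −2.16 ± 0.26 at 72 h (7.35e-06). Its SE was the largest of the members. With gene counts made from TPM and mean length, FECH was not called at 1.5 h (−0.67) or 3 h (−0.64).

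The steps between neighbouring times place these movements. From 3 to 6 h ALAS2, UROS, CPOX, PPOX and FECH fell (22.1% of all genes did), with PPOX called although its libraries of the 2 times overlapped. When 1 of 8 libraries was left out, 2 or 3 members were called at this step. From 6 to 24 h ALAD rose by 0.96 ± 0.13, UROS by 1.13 ± 0.12, UROD by 0.70 ± 0.11 and CPOX by 1.24 ± 0.16 (log2, adjusted p at most 0.000115), beside 30.8% of all genes. At the same step ALAS2 fell by 3.38 ± 0.15, beside 25.8% of all genes called lower, and ALAS1, PPOX and FECH were not called (0.02, 0.05 and 0.38). From 6 to 72 h ALAD, UROS, UROD and CPOX were called higher and ALAS2 lower, where 31.6% of all genes were higher and 25.6% lower. Over the whole course all 8 members were called, as were 82.9% of all genes.

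UROD had the highest TPM of the members at every time point. At 0 h it stood at 298 and 342 TPM, and the others followed with means of 34.5 (FECH), 34.0 (PPOX), 28.0 (UROS), 25.9 (ALAS2), 21.2 (ALAS1), 20.3 (CPOX) and 8.47 TPM (ALAD). The libraries of FECH and PPOX overlapped, as did those of UROS and ALAS2 and of ALAS1 and CPOX. At 72 h UROD was at 348 and 361 TPM, followed by ALAS1 at 28.7, UROS at 18.1, CPOX at 16.3, FECH at 12.6, PPOX at 12.04, ALAD at 9.99 and ALAS2 at 7.27 TPM. In that order each neighbour from UROS to ALAD overlapped the next. ALAD had the lowest TPM up to 6 h and ALAS2 from 24 h on. For FECH a short transcript of 564 bases, FECH-205, held 46.4% of the gene's TPM but 11.5% of its reads, with a mean share of the TPM from 17.2% at 6 h to 62.4% at 3 h.

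Transcripts of 2 members shared the fall unequally, as far as the estimated split of reads between overlapping transcripts can tell. FECH-201 (7677 bases, chr18:57548283-57586772) and FECH-202 (2583 bases, chr18:57549510-57586654), both protein coding, took 45.1% and 24.8% of the gene's reads over all libraries. FECH-202 went from 11.5 and 16.5 CPM (0 h) to 0.694 and 4.30 (1.5 h) and 0.528 and 0 (72 h). FECH-201 went from 11.1 and 12.9 CPM (0 h) to 11.2 and 6.65 (1.5 h) and 2.28 and 5.88 (72 h). The FECH-202 libraries of 0 and 0.5 h thus lay clear of all later ones, and those of FECH-201 did not. UROS is known to have a housekeeping and an erythroid promoter. Its 8 transcripts that start upstream (position 125823039 to 125823256 of chromosome 10, minus strand) had 6.05 and 7.81 CPM (0 h), 1.86 and 0.668 (6 h), 6.88 and 8.33 (48 h) and 5.71 and 8.38 (72 h). Its 3 transcripts with an internal start (125816252 to 125816632) had 5.57 and 4.45 CPM (0 h), 5.64 and 5.68 (3 h), 2.53 and 2.90 (6 h), 2.30 and 0.672 (48 h) and 3.49 and 0.612 (72 h). The other 10 UROS transcripts (starts at 125795227 to 125815082), with the largest mean share of the reads over the libraries, had 13.3 and 12.5 CPM (0 h), 3.16 and 3.45 (6 h), 7.82 and 6.62 (48 h) and 6.67 and 6.73 (72 h). All 3 groups were lower at 6 h than at 0 h in both libraries. At 48 h the upstream and the remaining groups were above their 6 h levels in both libraries, and the internal group was below its own. At 24 and 72 h the upstream and the remaining groups were again above theirs, but the internal group overlapped its 6 h level (3.28 and 1.30 CPM at 24 h). Against 0 h, the upstream group at 48 h overlapped its earlier level, and the internal and the remaining groups were below theirs in both libraries. The libraries of a time differed widely, the groups of starts were formed after the values were seen, and no test was run on transcripts. For ALAS2 the split between ALAS2-210, ALAS2-202 and ALAS2-203 changed from library to library, with 27.6% and 86.2% of the reads on ALAS2-210 in the 24 h pair, so it is not described further. ALAS1-201, ALAS1-204 and ALAS1-205 each held 19.6% to 44.4% of the ALAS1 reads in every library.

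**Figure D4:**
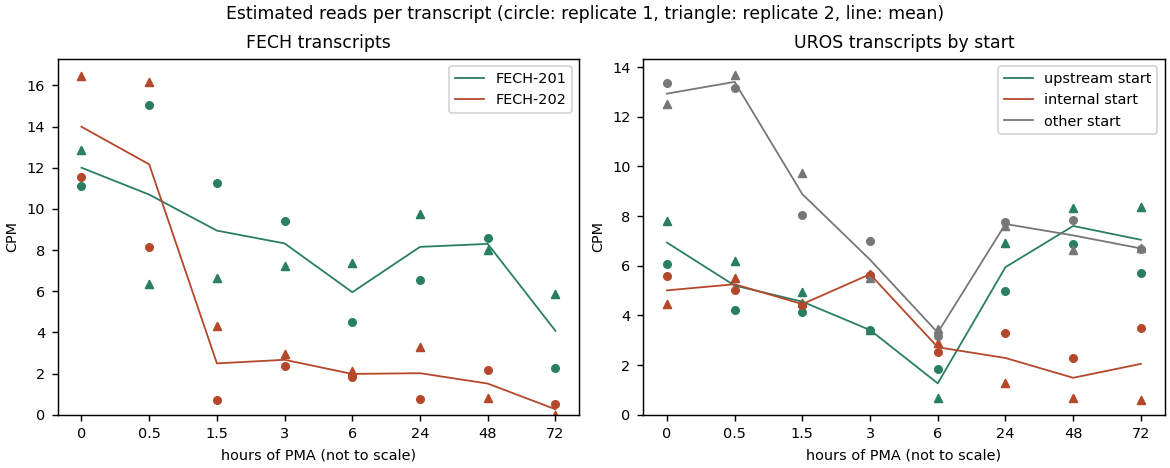
Estimated reads (CPM) on 2 FECH transcripts (left) and on UROS transcripts in groups by start (right) at the 8 time points, evenly spaced (circle: replicate 1, triangle: replicate 2, line: mean). FECH-202 drops from 11.5 and 16.5 CPM (0 h) to 0.694 and 4.30 (1.5 h), and the UROS upstream group is lowest at 6 h.

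Most transporters that serve the pathway were lower at both 6 and 72 h. Of 9 tested, 8 were lower at 6 h (median log2 change −0.84) and 9 at 72 h (−0.83), and none was higher, where 29.4% and 26.9% of all genes were lower and their median was 0.00 and −0.03. SLC6A9, the glycine importer of the plasma membrane, had 68.0 ± 12.6 CPM before PMA (SD, n = 2), 4.74 ± 0.24 after 6 h and 9.95 ± 1.66 after 72 h, a log2 change of −3.84 ± 0.17 (SE, adjusted p = 2.88e-10) and −2.77 ± 0.15. TMEM14C, which helps move protoporphyrinogen into the mitochondrion and had the highest TPM of the list, changed by −0.37 ± 0.11 and −0.65 ± 0.11. Its 6 h call was lost without either 6 h library. SLC25A37, the mitochondrial iron importer of erythroid cells, fell by 1.89 and 0.85, and SLC25A38, linked to glycine import, by 1.25 and 0.37. SLC25A28, the iron importer of other tissues, was not called at 6 h (−0.06).

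Of the 5 genes around succinyl-CoA, 2 were higher and 2 lower at 6 h (median −0.01), where 27.8% of all genes were higher and 29.4% lower. At 72 h 1 was higher and 1 lower (−0.27), beside 31.7% and 26.9% of all genes. DLST, a subunit of the oxoglutarate dehydrogenase complex that makes succinyl-CoA, rose from 66.4 ± 3.1 to 118 ± 4 CPM at 6 h (0.84 ± 0.10, adjusted p = 4.29e-06) and was at 0.09 ± 0.10 at 72 h, not called, with the other sign under total-count scaling. SUCLG1, a subunit of the ligase that uses succinyl-CoA, fell by 0.39 ± 0.08 and 0.57 ± 0.08.

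Of the 7 genes of iron-sulphur cluster assembly, on which FECH depends, 3 were lower and none higher at 6 h (median −0.20), and 2 were higher and 3 lower at 72 h (0.00). The shares of all genes were 27.8% higher and 29.4% lower at 6 h, and 31.7% and 26.9% at 72 h. NFS1, the cysteine desulphurase, fell by 0.80 ± 0.10 at 6 h and 0.48 ± 0.09 at 72 h. GLRX5, which passes clusters on and is needed for haem synthesis in erythroid cells, was at −0.04 ± 0.11 at 6 h, a sign that turned with removal of the GC trend, and rose from 36.8 ± 0.1 to 103 ± 3 CPM at 72 h (1.49 ± 0.11, adjusted p = 7.62e-08). FDX2 was the other gene called higher at 72 h (0.91 ± 0.16).

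Among 10 genes of haem breakdown, binding and export, HMOX1 and ABCG2 had at most 5 and 6 reads and were not tested. Of the other 8, 1 was higher and 4 lower at 6 h (median −0.42), and 2 were higher and 4 lower at 72 h (−0.50), against 27.8% of all genes higher and 29.4% lower at 6 h and 31.7% and 26.9% at 72 h. BLVRB, a biliverdin reductase and the most abundant of the list, had 188 ± 42 CPM before PMA, 92.5 ± 1.6 after 6 h and 24.9 ± 2.5 after 72 h (−2.91 ± 0.15, adjusted p = 1.15e-09). SLC48A1, a haem transporter of the endosome, fell by 2.81 ± 0.14 at 6 h and 1.55 ± 0.13 at 72 h. FLVCR1, a haem exporter, rose by 1.19 ± 0.12 at 72 h, and its relative FLVCR2 went from 3 and 0 reads (0 h) to 31 and 29 (72 h) and was called higher (adjusted p = 0.000359).

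Of 12 regulators of the pathway, 4 were higher and 5 lower at 6 h (median −0.17; all genes 27.8% and 29.4%), and 4 were called each way at 72 h (0.03; 31.7% and 26.9%). Among the 4 higher at 6 h is PPARGC1A, whose call there rests on 4 reads and was lost with DESeq2, with no filter, with total-count scaling and without either 0 h library. KLF1, an erythroid activator, fell from 52.6 ± 12.5 CPM to 1.37 ± 0.01 at 6 h and stood at 2.87 ± 0.04 at 72 h, a log2 change of −5.26 ± 0.20 (adjusted p = 7.77e-11) and −4.19 ± 0.18. GATA1, shared by the erythroid and megakaryocyte lines, fell by 3.76 ± 0.18 at 6 h and was at 0.02 ± 0.15 at 72 h, not called. LONP1, the protease that degrades ALAS1, fell by 2.03 ± 0.13 and 2.09 ± 0.13, and CLPX, which activates ALAS and promotes its turnover, was called at neither time (−0.13 and 0.19). EIF2AK1, the kinase that senses haem, fell by 1.80 ± 0.10 and 0.80 ± 0.09, whereas BACH1, a repressor that haem releases, rose by 1.76 ± 0.17 and 0.99 ± 0.16. PPARGC1A, an activator of ALAS1 in liver, had 0 reads in both 0 h libraries, 1 and 3 (6 h) and 17 and 17 (72 h), at least 5.33-fold higher at 72 h with 3 reads per library as the floor.

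**Figure D5:**
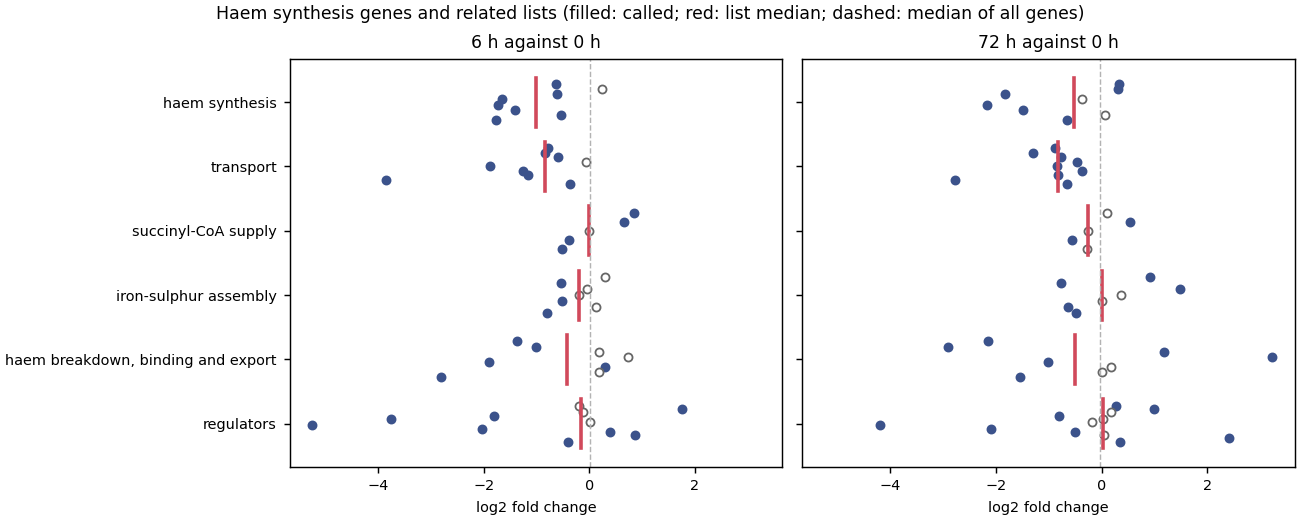
Log2 fold change at 6 h (left) and 72 h (right) against 0 h for the haem synthesis genes and the 5 related lists, 1 point per tested gene (filled: adjusted p under 0.05), with the list median in red and the median of all genes dashed. FLVCR2 and PPARGC1A are drawn relative to 3 reads per library and PPARGC1A is left out at 6 h, where both groups were at or under the floor; the transport row lies left of 0 in both panels.

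Genes whose course was most like that of a member were ranked by Pearson's r of log2 CPM over the 16 libraries, among the 11269 genes whose mean level reached 5 CPM. For ALAS2 these were PHGDH (r = 0.986), the surface protein gene CD24 (0.979) and the embryonic globin gene HBZ (0.978). For ALAS1 they were FAM171A1 (0.944), SLC35E1 (0.941) and CANT1 (0.939), and for ALAD UNC119 (0.970), MAVS and YPEL3 (both 0.964). UROS was followed by MAN1B1 (0.980), NSMCE4A and ASIC4 (both 0.974), and UROD by FIBP (0.971), AKR7A2 (0.960) and CDK2AP2 (0.958). CPOX was followed by PRKAB1 (0.974), LMAN2L (0.972) and CCDC51 (0.971), PPOX by GRHPR (0.968), D2HGDH (0.965) and ALKBH7 (0.951), and FECH by ANKRD13B (0.950), DEAF1 (0.932) and TIMM13 (0.931). Between members, r was highest for UROS with CPOX (0.89), PPOX with FECH (0.85) and ALAD with UROD (0.82), and lowest for ALAS1 with ALAS2 (−0.72). The libraries share their time points, scaling and GC differences, so these values only describe the courses.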

How the data were processed

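RNA from 16 K562 libraries (8 time points of PMA, 2 each) was sequenced after ribosomal RNA had been removed (labels' protocols). For each library the deposited table gives 177456 transcripts, each with an estimated count of reads (NumReads of Salmon, per the file headers), not normalized and not always whole, and a TPM, its share per effective length as the authors deposited it. The submitters' processing notes name Salmon, Trim Galore 0.4.3 and HISAT2 2.1.0, and the builds hg19 and hg38, with no roles. The version of Salmon, the use of strand and any bias correction are not given in the sources used here. Transcripts were assigned to genes by identifier with GENCODE release 29 (GRCh38); 167027 (94.1%) matched, in 35052 genes, and the rest held 3.01 to 3.75% of a library's reads. Positions of genes and transcripts are those of GRCh38.

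Estimated counts were summed per gene, rounded to whole numbers and tested with edgeR 4.0.16 in R 4.3.3. TMM factors ranged from 0.854 to 1.139. The fit used filterByExpr, all 8 time points in 1 model, the quasi-likelihood F-test and a prior count of 0.125. This left 17559 genes, with a common biological coefficient of variation of 0.123 and 8 residual and 5.28 prior degrees of freedom. P-values were adjusted over all tested genes within a contrast, and SEs were derived from the unshrunk log2 change and its F value. A count of 3 reads equals 0.0623 to 0.128 CPM, and depth gives the counting error only. On simulated counts for 72 h against 0 h over 17559 genes, 83.8% of 2-fold and 97.9% of 4-fold changes were recovered, with 8 false calls among 189. These counts were drawn independently for each library, with no GC difference between libraries and only 200 genes changed. In the data the difference within a pair followed GC content at 0 h (r = 0.74) and at 72 h (r = 0.57). The simulated rates therefore do not describe the error rates of the real comparison. Figures were drawn with matplotlib 3.10.9.

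All 8 enzymes are named whatever their values. From each related list the gene with the largest change at 72 h, that at 6 h and that with the highest mean TPM are named, and others to say which were called: SLC25A37, SLC25A38, SLC25A28, FDX2, FLVCR1, GATA1, CLPX, EIF2AK1 and BACH1 were chosen after their values were seen. The members and lists were chosen with earlier results of these data known. Alternatives were other scalings, filters, thresholds and designs, DESeq2 1.42.0, counts made from TPM, removal of each library's GC trend and leaving out each library.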

Additional observations from a re-analysis of the deposited data

How the results depend on the processing

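Counts of called members stayed within 1.5 times in 139 of 164 comparisons with other settings and in 213 of 240 with 1 library left out. At an adjusted p under 0.01, 0 were called at 1.5 h and 4 at 24 h, and for the steps 0 (0.5 to 1.5 h) and 2 (3 to 6 h). Counts made from TPM gave 0 at 1.5 h, 4 at 24 h and 0 for 0.5 to 1.5 h. With only the 2 time points in the fit, 2 were called at 1.5 h, and for the steps 2 (0.5 to 1.5 h), 3 (3 to 6 h), 2 (24 to 48 h) and 0 (48 to 72 h). Total-count scaling gave 8 at 3 h, 3 for 1.5 to 3 h and 2 for 24 to 48 h. Removing the GC trend gave 2 for 1.5 to 3 h and 2 for 24 to 48 h. For 0.5 to 1.5 h, DESeq2 size factors gave 0 and at least 10 counts in every library gave 0, and for 48 to 72 h no low-count filter gave 2.

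Replicate numbers were not taken to pair the libraries: over 28 pairs of time points the correlation of deviations was −0.118 to 0.211 (median 0.098), with 14 over 0.1. The replicate numbers did differ in the mean gap between length and effective length of long transcripts. It was 210.2 to 221.4 bases in libraries numbered 1 and 229.7 to 248.7 in those numbered 2 from 0.5 h on. The second 0 h library, at 199.4, was the lowest of all. The effect of this gap on the calls was not tested. The replicate block gave 2 for 0.5 to 1.5 h, called CPOX at 48 and 72 h (adjusted p = 0.0255 and 0.0189) and lost PPARGC1A at 6 h (0.0566). The block with the GC trend removed gave 3 (0.5 to 1.5 h), 2 (1.5 to 3 h), 3 (24 to 48 h) and 3 (48 to 72 h). With 1 library left out, counts against 0 h ranged over 0 to 1 (0.5 h), 0 to 4 (1.5 h), 3 to 6 (3 h), 7 to 8 (6 h), 4 to 7 (24 h), 5 to 7 (48 h) and 4 to 7 (72 h), and for the steps over 0 to 2 (0.5 to 1.5 h) and 2 to 7 (3 to 6 h).

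Signs turned only for values that were not called with TMM, and of these ALAS1 at 3 h became called (−0.28, total counts). Total-count scaling gave ALAS1 −0.084 (1.5 h) and −0.13 (6 h), ALAD −0.0105 (48 h), UROD −0.091 (24 h) and −0.095 (72 h), and DLST −0.0650 (72 h). Removing the GC trend, without and with the replicate block, gave at 0.5 h 0.065 and 0.065 for ALAS1, 0.026 and 0.026 for ALAS2, and −0.020 and −0.025 for CPOX. It gave UROD −0.011 and −0.010 (24 h) and −0.028 and −0.026 (72 h), and GLRX5 0.025 and 0.022 (6 h). Counts from TPM gave 0.054 for ALAS1 and −0.042 for CPOX at 0.5 h. ALAS1 at 3 h was −0.00893 with no filter and −0.011 with 2 time points in the fit. Leaving out 1 library gave ALAS1 −0.14 to 0.12 (0.5 h), −0.12 to 0.14 (1.5 h) and −0.12 to 0.14 (3 h), ALAS2 −0.25 to 0.068 (3 h), UROS −0.15 to 0.032 (0.5 h), UROD −0.010 to 0.35 (24 h) and −0.11 to 0.25 (72 h), CPOX −0.11 to 0.16 (0.5 h), FECH −0.46 to 0.0010 (0.5 h) and GLRX5 −0.15 to 0.083 (6 h). As reads per kilobase, ALAS2 over ALAS1 was 1.15 (0 h), 1.07 (0.5 h), 1.08 (3 h), 0.642 (6 h), 0.116 (48 h) and 0.263 (72 h). By TPM in place of reads, the leading transcript held 54.3% of ALAD, 14.1% of UROS, 63.5% of UROD, 74.0% of CPOX, 34.0% of PPOX and 8.48% of FECH. Apart from the constructions named, the cause was not tested.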
